A study of Trachemys scripta elegans with 3 samples.

Results

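The liver of the red-eared slider, Trachemys scripta elegans, after 30 days at 5 psu was compared with that in fresh water (0 psu). Psu, practical salinity units, is the measure of salt in the water. The rows compared are those whose closest protein in the NR database came from Chrysemys, Chelonia, Pelodiscus, Trachemys or Alligator and whose level was at least 5 FPKM in both libraries. FPKM is the number of sequenced fragments per kilobase of a unigene, scaled to the fragments mapped in the library, and a unigene is a set of transcripts that the assembly joined. This gave 7550 of 205118 unigenes. With the same description and KEGG name taken as 1 gene, they stand for 6903 genes, of which 6469 have 1 unigene here and 434 have 2 or more.

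The series holds 3 liver libraries, 1 each from turtles kept at 0, 5 and 15 psu. The turtles were 2 years old, came from a farm, were fed a commercial diet and fasted for 24 h before sampling. Each salinity had its own pool, so that pool and salinity cannot be told apart. Their sex was not given in the sources used here. The livers of 3 turtles were mixed for each library, so there was no replicate, no value has an error, and no difference between salinities can be set against the variation between turtles. Differences are therefore described by their size alone, as the log2 ratio of 5 psu to 0 psu after adding 0.1 to each FPKM. A unigene is said to have risen or fallen where that ratio reached 2-fold.

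The liver makes most of the proteins of blood plasma, stores iron and glycogen, turns amino acids into glucose and the nitrogen of amino acids into urea or uric acid, and clears foreign and waste compounds with cytochromes P450 and conjugating enzymes. It also houses resident macrophages and many lymphocytes. A freshwater turtle keeps its blood saltier than the water around it, and in brackish water that gradient shrinks or turns. Urea and free amino acids in the blood are known to help turtles hold water in salt, and both pass through the liver.

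Of all FPKM, the unigenes compared took 48.3% in fresh water, 47.6% at 5 psu and 50.1% at 15 psu, and their median level was 13.3 FPKM at 0, 13.8 at 5 and 13.5 at 15 psu. Proteins made by hepatocytes were among the most abundant in all 3 libraries, such as apolipoprotein A-II of high density lipoprotein, with FPKM of 8224 at 0, 7969.6 at 5 and 7144 at 15 psu. The best match was the western painted turtle Chrysemys picta bellii for 6212 unigenes, the green turtle Chelonia mydas for 894, the softshell turtle Pelodiscus sinensis for 224 and the alligators Alligator mississippiensis and Alligator sinensis for 163 and 39. At 15 psu, 7152 of the 7550 unigenes were also at 5 FPKM or more, and 55 were listed at 0. The 15 psu level is given beside most genes below as a further measurement of the same unigene.

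Most unigenes had close levels in both libraries. In 0 vs. 5 psu, 88 unigenes rose and 126 fell, which is 2.83% of those compared, 1.17% upward and 1.67% downward. The counts of rises and falls in each list below are to be read against these shares. At 1.5-fold the counts were 334 higher and 325 lower, which is 4.42% and 4.3% and together 8.73%. The median ratio was 0.05 on the log2 scale, with 4392 unigenes higher and 3149 lower at 5 psu by any amount. Between the 5th and the 95th percentile the log2 ratio ran from -0.54 to 0.55, and its extremes were -3.75 and 3.27. The share that changed was 0.924% where the mean level was from 5 to 10 FPKM, a class that the minimum of 5 FPKM in both libraries holds down, and between 2.73% and 5.26% in the classes above. Of the 76 unigenes at 1000 FPKM or more, none rose and 4 fell.

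**Figure D1:**
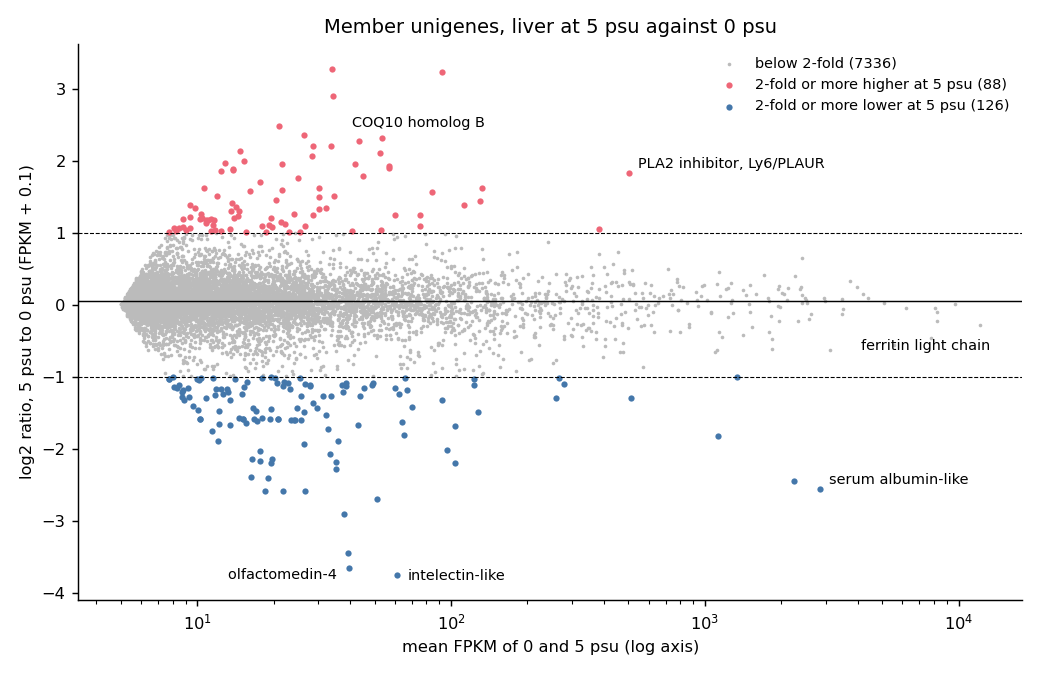
Each point is 1 of 7550 unigenes, placed by the mean FPKM of 0 and 5 psu (log axis) and the log2 ratio of 5 psu to 0 psu; dashed lines mark 2-fold and the solid line the median of 0.05. Red points are the 88 that rose and blue points the 126 that fell, with serum albumin-like at -2.56 far below the other abundant unigenes.

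The share that changed differed with the description and the best match. Of 7149 unigenes whose description names a protein, 2.45% changed, against 9.73% of 401 that were uncharacterized, hypothetical or unnamed. Matches to Chelonia mydas changed in 61 of 894 cases and matches to Pelodiscus sinensis in 17 of 224, which is 6.82% and 7.59%, against 2.14% for Chrysemys picta bellii and 0.613%, or 1 of 163, for Alligator mississippiensis. Among the 55 unigenes listed at 0 at 15 psu, 18 had changed between 0 and 5 psu. The minimum level sets the edge of the group: 423 unigenes with a lower value of 5 to 5.5 FPKM had a median log2 ratio of 0.09, and 493 just outside it, from 4.5 to 5 FPKM, had 0.10.

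Plasma proteins and iron storage proteins were among the most abundant transcripts, and the largest differences in level were falls among them. Serum albumin, the main carrier protein of plasma, fell in both of the unigenes described as serum albumin-like. The first had FPKM of 4846 in fresh water, 824 at 5 psu and 1268 at 15 psu and the other 3791 at 0, 694 at 5 and 978 at 15 psu, which is 5.88-fold and 5.46-fold lower at 5 psu. Both salt libraries lay far below the freshwater library, and the 15 psu level was above that of 5 psu in each unigene. A further albumin unigene at a much lower level, described as Serum albumin, had 9.81 at 0, 12.47 at 5 and 19.6 at 15 psu. Alpha-fetoprotein, a carrier of the same protein family, had 9027 in fresh water, 6539 at 5 psu and 6151 at 15 psu and stayed within 2-fold. In a mixed liver, fewer cells of a type and less RNA per cell cannot be told apart, here and in all that follows.

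The other carriers changed less. Of 29 unigenes of the list of secreted carriers and apolipoproteins, the 2 albumin unigenes fell and none rose, with a median log2 ratio of -0.04. The iron carrier transferrin, described as iron binding protein, had FPKM of 6625 at 0, 4504 at 5 and 5198 at 15 psu in its main unigene, a log2 ratio of -0.56. Apolipoprotein E, which directs lipoprotein remnants to the liver, had 567 in fresh water, 361 at 5 psu and 390.4 at 15 psu. The study named another apolipoprotein E unigene, not in the comparison, and reported it as higher at 5 and 15 psu, also by PCR. Apolipoprotein C-I was lower to an extent like that of the apolipoprotein E unigene compared here, with 91.8 at 0, 56.3 at 5 and 51.3 at 15 psu. In the other direction, apolipoprotein A-IV, which is secreted with triglyceride-rich lipoproteins, had 104 in fresh water, 162 at 5 psu and 284 at 15 psu and apolipoprotein A-V, which promotes the breakdown of plasma triglyceride, had 69.6 at 0, 115 at 5 and 169 at 15 psu. For both the levels stood in the order of the salinities. Cholesteryl ester transfer protein, which moves cholesteryl ester between plasma lipoproteins, is in no list and fell from 28.5 FPKM at 0 psu to 6.89 at 5 psu, with 3.74 at 15 psu.

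The acute phase list had the lowest median of the 42 lists, -0.34 on the log2 scale, against 0.05 over all unigenes compared. These are plasma proteins whose synthesis shifts in inflammation. Of its 34 unigenes 25 were lower at 5 psu, 3 fell and none rose. Most of them, and all 3 that fell, belong to 1 family, alpha-2-macroglobulin, whose own median was -0.34. With 1 unigene per gene, 13 genes were lower and 3 higher, and the list median was -0.40. The 3 chains of fibrinogen, the precursor of the clot, were lower together: the gamma chain had FPKM of 3787 in fresh water, 2442 at 5 psu and 2787 at 15 psu, the alpha chain 2130.5 at 0, 1535 at 5 and 1667 at 15 psu and the beta chain 1624 in fresh water, 1211 at 5 psu and 1200.4 at 15 psu. None of the 3 reached 2-fold, and their 15 psu levels were below fresh water as well. Alpha-2-macroglobulin, a broad trap for proteases, was assembled into 22 of the unigenes compared, of which 16 were lower at 5 psu and 3 fell. Those that fell had 83.2 at 0, 37.3 at 5 and 61.0 at 15 psu in the first case, 66.9 in fresh water, 30.7 at 5 psu and 43.0 at 15 psu in the second and 166 at 0, 81.2 at 5 and 111 at 15 psu in the third. Over the unigenes counted as the same gene, the second had a log2 ratio of -0.59. The most abundant unigene had 1306 in fresh water, 1162 at 5 psu and 1608 at 15 psu, so that the fresh water and 5 psu levels were close there. A pentraxin, a member of the family of C-reactive protein, was at 732 at 0, 404 at 5 and 771 at 15 psu, and hepcidin, the peptide that blocks iron export from cells, at 580.3 in fresh water, 369.7 at 5 psu and 392 at 15 psu. Serum amyloid A, the acute phase protein of lipoproteins, went against the list with a ratio of 1.97-fold between 5 and 0 psu, just short of 2-fold, and had 39.6 at 0, 78.01 at 5 and 706 at 15 psu. Its unigene is in the study's own list of genes, which was drawn from these libraries.

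Complement, the protein cascade that marks microbes, did not share that pattern. Of its 44 unigenes 1 rose, ficolin-3, from 5.30 FPKM at 0 psu to 12.2 at 5 psu, with 6.87 at 15 psu, none fell, and the median log2 ratio was 0.03. Outside the comparison, 5 unigenes of complement factor H, which protects host cells from the cascade, were listed at 0 in fresh water and at 15 psu and had 74.9 to 159 FPKM at 5 psu. Some of these 5 belong to a gene that also has a unigene in the comparison, so factor H was not confined to 5 psu. Ficolin-2-like, a lectin that starts the cascade, had 517 in fresh water, 370.4 at 5 psu and 342 at 15 psu in its main unigene. Complement C3-like, on which the pathways converge, had 2116 at 0, 1817 at 5 and 2768 at 15 psu. The 3 unigenes of complement C4-like with the highest levels had of 1140, 867 and 710 FPKM at 0 psu and 1338, 981 and 754 at 5 psu. Coagulation factors and their inhibitors were close to the median of all unigenes, at -0.02 over 30 unigenes with none changed. Plasminogen activator inhibitor 1, which brakes the dissolving of clots, was the lowest of them with 21.9 in fresh water, 11.9 at 5 psu and 24.0 at 15 psu. The KEGG name SERPINA joins alpha-1-antitrypsin, which restrains neutrophil elastase, with its relatives, and 10 of its 11 unigenes were lower at 5 psu. Both that fell were alpha-1-antichymotrypsin-like, an acute phase inhibitor in mammals that is in none of the lists and was looked up after its values were seen. The first had 87.7 at 0, 37.1 at 5 and 111 at 15 psu and the other 50.5 in fresh water, 15.2 at 5 psu and 51.8 at 15 psu, so that 15 psu was at or above fresh water in each.

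Iron storage genes were lower at 5 psu without reaching 2-fold. The ferritin light chain was the most abundant of all unigenes compared, with FPKM of 13257 at 0, 10904 at 5 and 13312 at 15 psu. The ferritin heavy chain, which oxidises iron for storage, had 8834 in fresh water, 7571 at 5 psu and 8230.4 at 15 psu. Both levels at 15 psu were nearer to fresh water. Of the 16 unigenes in the iron and haem list 11 were lower at 5 psu, the median was -0.28, and none changed 2-fold.

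Amino acid breakdown was lower in most of its enzymes. Of 27 unigenes in that list 23 were lower at 5 psu, with a median log2 ratio of -0.32, but none changed 2-fold. Threonine dehydrogenase, which starts the breakdown of threonine, had the lowest ratio with FPKM of 82.4 at 0, 46.4 at 5 and 75.7 at 15 psu. Most enzymes of the path from phenylalanine through tyrosine to fumarate had lower levels at 5 psu. Phenylalanine hydroxylase, the entry step, had 18.9 in fresh water, 12.9 at 5 psu and 15.0 at 15 psu. Tyrosine aminotransferase, the next step and a gene that glucocorticoids induce, fell 3.19-fold, with 20.5 at 0, 6.35 at 5 and 7.93 at 15 psu. It is counted in the fasting list below and is also in the study's own list. Hydroxyphenylpyruvate dioxygenase followed with 109.8 in fresh water, 74.6 at 5 psu and 89.7 at 15 psu, homogentisate dioxygenase with 199 at 0, 155 at 5 and 172 at 15 psu, maleylacetoacetate isomerase with 107 in fresh water, 126 at 5 psu and 84.9 at 15 psu, and fumarylacetoacetase, the last step, with 83.4 at 0, 50.2 at 5 and 60.7 at 15 psu. Of these 6 enzymes, 5 were lower in both salt libraries than in fresh water and the isomerase was higher at 5 psu, and only tyrosine aminotransferase passed 2-fold between 0 and 5 psu. L-amino-acid oxidase had the highest ratio of the list, 0.79. Its levels were 5.57 in fresh water, 9.70 at 5 psu and 1.61 at 15 psu. Every unigene of that description, those outside the comparison included, summed to 6.66 FPKM at 0, 23.25 at 5 and 8.67 at 15 psu. The log2 ratio of these sums was 1.79 between 0 and 5 psu, above 2-fold. The study named the unigene compared here as well and reported a larger rise for it at the lower salinity. The cause of that difference was not tested.

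Urea cycle enzymes carry the nitrogen that this breakdown frees. The list of 14 unigenes for urea and uric acid had a median of -0.09 and no member that changed 2-fold. Carbamoyl-phosphate synthase, the entry enzyme, had FPKM of 399 at 0, 309.8 at 5 and 272 at 15 psu. Argininosuccinate synthase had 180.5 in fresh water, 113 at 5 psu and 86.3 at 15 psu, and argininosuccinate lyase, which acts next, had 144 at 0, 104.83 at 5 and 81.3 at 15 psu. Arginase-1, which releases urea, had 219 in fresh water, 199 at 5 psu and 159 at 15 psu. These 4 enzymes had levels in the order fresh water, 5 psu, 15 psu, from high to low. Glutamine synthetase, which binds ammonia into glutamine, had the opposite sign in 1 unigene, with 27.02 at 0, 42.1 at 5 and 28.4 at 15 psu. A more abundant unigene of that gene had a log2 ratio of at most 0.29. That was the largest rise by gene in this list, in xanthine dehydrogenase. The study named a further glutamine synthetase unigene, not in the comparison, and reported it as higher at 5 and 15 psu, also by PCR. In the list of methionine, folate and one-carbon enzymes 1 of 18 unigenes changed, nicotinamide N-methyltransferase-like, which uses up methyl groups and rose from 13.2 to 29.4 FPKM and was at 28.8 at 15 psu, with a log2 ratio of 0.495 when its 3 unigenes were summed. Betaine-homocysteine methyltransferase, which spends the osmolyte betaine to remake methionine, had 147 in fresh water, 102 at 5 psu and 78.8 at 15 psu.

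The gluconeogenesis list had 2 rises and no fall among 10 unigenes, but 6 were lower at 5 psu, 2 of them by 1.5-fold, and its median was -0.05. Glucose-6-phosphatase-like, the enzyme that frees glucose from the hepatocyte, rose 2.06-fold, with FPKM of 249 at 0, 514 at 5 and 862 at 15 psu. Phosphoenolpyruvate carboxykinase and fructose-1,6-bisphosphatase 1, the steps before it, did not follow: the first had 944 in fresh water, 787 at 5 psu and 798 at 15 psu and the other 636 at 0, 636 at 5 and 761 at 15 psu. The second rise was alanine aminotransferase 1, which turns alanine into pyruvate, in a unigene with 11.4 in fresh water, 38.6 at 5 psu and 37.1 at 15 psu. Another unigene with the same description was higher in every library, at 138 at 0, 86.5 at 5 and 137 at 15 psu, and alanine aminotransferase 2-like had 131 in fresh water, 77.9 at 5 psu and 139 at 15 psu. Summed over every unigene described as alanine aminotransferase 1, the levels were 149 at 0 psu and 125 at 5 psu, so the direction for the gene turned to a log2 ratio of -0.26. Glycolysis and glycogen genes held no change among 20 unigenes. Aldolase B, the liver form that also splits fructose-1-phosphate, had 1466 at 0, 1955 at 5 and 1808 at 15 psu.

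Genes that rise in fasting or under glucocorticoids were mostly higher at 5 psu, 11 of 15 unigenes with a median of 0.27, but the single 2-fold change among them was the fall of tyrosine aminotransferase. Insulin-like growth factor-binding protein 1, which withholds growth factor from its receptor, had FPKM of 37.5 in fresh water, 64.5 at 5 psu and 51.4 at 15 psu. Angiopoietin-related protein 4, a blocker of lipoprotein lipase, had 20.1 at 0, 33.7 at 5 and 20.6 at 15 psu. The kinase SGK1, which raises sodium uptake in epithelia, had 9.50 in fresh water, 15.7 at 5 psu and 16.6 at 15 psu, and TSC22 domain family protein 3, a mediator of glucocorticoid action, had 56.7 at 0, 80.1 at 5 and 98.0 at 15 psu. None of these 4 genes reached 2-fold. FKBP5, a partner protein of the glucocorticoid receptor, and tryptophan 2,3-dioxygenase lay on the other side. The first had 28.1 in fresh water, 22.3 at 5 psu and 47.5 at 15 psu. The second had 151 at 0, 120.1 at 5 and 110.2 at 15 psu.

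Fat metabolism gave few changes. In the list of fatty acid and triglyceride synthesis 1 of 25 unigenes changed, fatty acid desaturase 2-like, which makes polyunsaturated fatty acids and rose from 7.26 to 15.7 FPKM, with 8.67 at 15 psu. Perilipin-2, the coat protein of lipid droplets, had 31.5 in fresh water, 45.2 at 5 psu and 76.0 at 15 psu. In fatty acid oxidation 1 of 29 changed, peroxisomal acyl-coenzyme A oxidase 2, which shortens branched fatty acids and bile acid precursors and fell from 38.2 to 17.6, with 25.1 at 15 psu. The second unigene of this oxidase had 26.4 at 0, 16.6 at 5 and 18.2 at 15 psu. Bile acid synthesis and export, with 10 unigenes and a median of -0.24, held no 2-fold change. Small heterodimer partner, the receptor that shuts off bile acid synthesis, had 72.0 in fresh water, 51.8 at 5 psu and 32.0 at 15 psu, and the bile salt export pump 32.3 at 0, 23.6 at 5 and 28.6 at 15 psu. Cholesterol synthesis and uptake had 9 of 12 unigenes higher at 5 psu with a median of 0.23, none of them 2-fold, and lanosterol synthase at 6.98 in fresh water, 10.2 at 5 psu and 10.3 at 15 psu had its highest ratio.

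Conjugation enzymes and cytochromes P450, which make foreign compounds soluble and removable, were lower in most unigenes. The conjugation list had a median of -0.24 over 32 unigenes, with 25 lower, 3 that fell and 1 that rose. All of its changes were glutathione S-transferases, the enzymes that attach glutathione. The most abundant of those that fell, glutathione S-transferase-like, had FPKM of 369 at 0, 150.4 at 5 and 143 at 15 psu, 2.45-fold lower. Glutathione S-transferase 3-like fell from 131 to 52.3 with 98.99 at 15 psu, and theta-1-like from 47.6 to 19.7 with 19.6 at 15 psu. Another unigene of glutathione S-transferase 3-like rose from 8.22 to 27.03 and was listed at 0 at 15 psu, and the 4 unigenes of that description summed gave a log2 ratio of -0.62. Over the 13 unigenes of the family, without the microsomal form, the summed level was 2054 FPKM at 0, 1374 at 5 and 1511 at 15 psu. Microsomal glutathione S-transferase 1 was higher at 5 psu, with 518 in fresh water, 639 at 5 psu and 608 at 15 psu. The 14 unigenes with the KEGG name GST summed to 2630 FPKM at 0, 2044 at 5 and 2149 at 15 psu.

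The P450 list had 24 of 34 unigenes lower, with a median of -0.14, 1 fall and 1 rise. Within it the CYP2 family, which acts mostly on foreign compounds and fatty acids, had 18 of 22 unigenes lower and a median of -0.33, and its summed level was 4163 FPKM at 0, 3070 at 5 and 3171 at 15 psu. Cytochrome P450 2H2-like fell in 1 unigene, with 380.5 in fresh water, 177 at 5 psu and 150.0 at 15 psu. Its 2 other abundant unigenes had 495 at 0, 300.3 at 5 and 322 at 15 psu and 484 in fresh water, 326 at 5 psu and 368 at 15 psu. Cytochrome P450 2J6-like, at 175 at 0, 89.9 at 5 and 103 at 15 psu, and cytochrome P450 2C23-like, at 65.5 in fresh water, 32.9 at 5 psu and 81.3 at 15 psu, were just short of 2-fold. Cytochrome P450 4B1-like was the exception with a rise of 3.87-fold in 1 unigene, from 8.76 to 34.2, and 7.96 at 15 psu, while the more abundant unigene of that description stayed within 2-fold at 27.5 at 0, 36.1 at 5 and 25.97 at 15 psu.

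**Figure D2:**
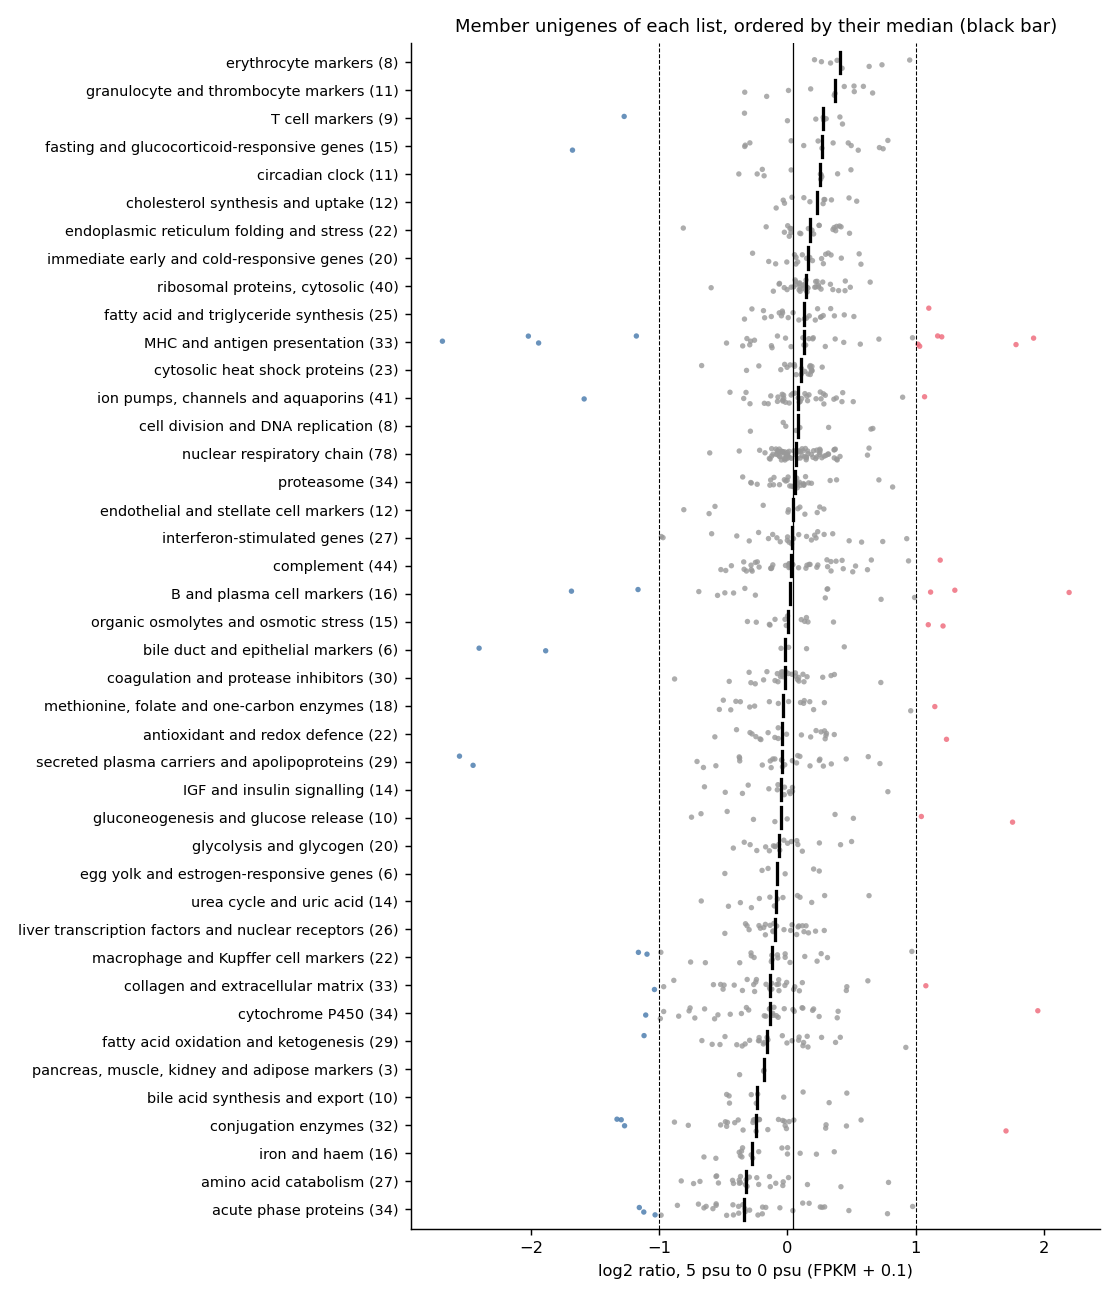
Each row is 1 gene list with the number of its unigenes in brackets, each point the log2 ratio of 1 unigene, each black bar the median of the row, dashed lines 2-fold and the thin solid line the median of all unigenes compared. Medians run from -0.34 in acute phase proteins to 0.41 in erythrocyte markers, and few points of any row pass the dashed lines.

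Osmotic regulation and ion transport, the theme of the study, had medians near that of all unigenes. Organic osmolytes and osmotic stress genes had 2 rises among 15 unigenes and a median of 0.00. Salt-inducible kinase 1, part of the response to cell sodium in kidney cells of mammals and a gene of the study's own list, rose with FPKM of 5.58 in fresh water, 13.1 at 5 psu and 25.7 at 15 psu. Aldose reductase-like, which makes the osmolyte sorbitol in kidney cells of mammals, rose in a unigene with 16.8 at 0, 36.2 at 5 and 23.5 at 15 psu and was at 54.2 in fresh water, 60.05 at 5 psu and 35.6 at 15 psu in another. With the unigenes of this description in the comparison summed, the log2 ratio was 0.44, below 2-fold. Sorbitol dehydrogenase, which removes sorbitol, had 115 at 0, 113 at 5 and 121 at 15 psu. The list of pumps, channels and aquaporins had 1 rise, 1 fall and 39 unigenes within 2-fold, with a median of 0.09. The fall was the V-type proton ATPase subunit d 2, which had 29.0 at 0 psu and 9.62 at 5 psu and was listed at 0 at 15 psu, and the reads behind that ratio are unknown. The rise was carbonic anhydrase 13, which hydrates carbon dioxide, with 5.21 in fresh water, 11.1 at 5 psu and 6.46 at 15 psu. Aquaporin-9, the glycerol and urea channel of hepatocytes, had 145 at 0, 138 at 5 and 111.8 at 15 psu. Of the 34 unigenes in the study's list, 8 met both the level and the species match of the comparison, and 2 of them are named only here. Salt-inducible kinase 2, a relative of kinase 1, had 11.1 in fresh water, 11.0 at 5 psu and 13.6 at 15 psu. Glucokinase, which traps glucose in the hepatocyte, had 10.7 at 0, 10.04 at 5 and 2.79 at 15 psu.

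The red cell markers listed were higher at 5 psu throughout. All 8 unigenes of the erythrocyte marker list were higher, none by 2-fold, with a median of 0.41. The alpha-type globins, which turtles make in red cells with nuclei, summed to 777 FPKM at 0, 1021 at 5 and 621 at 15 psu, and the beta globin had 881 in fresh water, 1059 at 5 psu and 588 at 15 psu. Of the 10 markers listed, 6 had a unigene in the comparison and 3 matched none. Several genes that red cells also express were higher at 5 psu beside them, and the part of blood cells in their values was not tested. Peroxiredoxin-2, the peroxide-removing enzyme that abounds in red cells, rose with 35.8 at 0, 84.6 at 5 and 45.4 at 15 psu. Carbonic anhydrase 2 had 17.6 in fresh water, 32.8 at 5 psu and 24.3 at 15 psu and aquaporin-1, the water channel, 34.1 at 0, 48.8 at 5 and 27.4 at 15 psu. Bisphosphoglycerate mutase, which makes the regulator of oxygen binding in mammalian red cells, had 15.3 in fresh water, 21.6 at 5 psu and 14.1 at 15 psu. In each of these 4 genes 5 psu had the highest level of the 3 libraries, as in the globins. They are not in the erythrocyte marker list. Each was the largest rise of another list or was looked up after its values were seen, so they are no separate support. Erythroid membrane-associated protein-like, not in the erythrocyte marker list either, went the other way, with 45.5 at 0, 7.51 at 5 and 53.9 at 15 psu in 1 unigene. Every unigene of that description summed to 210.8 FPKM at 0, 98.9 at 5 and 172.6 at 15 psu.

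Immune lists differed in how many unigenes changed, from none of 27 for interferon-stimulated genes, none of 11 for granulocytes and thrombocytes and 1 of 44 for complement to 10 of 33 for antigen presentation. The list for the major histocompatibility complex (MHC) and antigen presentation had 6 rises and 4 falls among 33 unigenes, the most changes of any list, with a median of 0.13. Over all unigenes compared, 2.83% changed. Class II molecules present peptides from outside the cell. HLA class II antigen of the DRB1-16 beta type fell 6.45-fold, from 88.2 to 13.6 FPKM, and was at 82.9 at 15 psu. A Mamu class II DR alpha chain rose 3.44-fold, with 20.3 at 0, 70.02 at 5 and 27.03 at 15 psu, but over every unigene of that description the log2 ratio was 0.70. A unigene described as DR alpha chain-like, more abundant in fresh water, fell 4.05-fold, with 155 at 0, 38.2 at 5 and 192 at 15 psu. The invariant chain CD74, which escorts class II molecules, had 958 in fresh water, 771 at 5 psu and 832 at 15 psu in its main unigene, and beta-2-microglobulin, the partner of class I, had 1101 at 0, 1198 at 5 and 952 at 15 psu. Tapasin, also in this list, rose with 8.44 at 0, 19.6 at 5 and 4.15 at 15 psu. Tapasin-related protein-like rose too, with 34.9 in fresh water, 71.4 at 5 psu and 51.7 at 15 psu. CD74 and beta-2-microglobulin thus stayed within 2-fold while the antigen-presenting chains moved both ways. Class I antigen of the F10 alpha type showed this within 1 description. Of its 7 unigenes 1 fell, with 92.7 in fresh water, 40.9 at 5 psu and 60.4 at 15 psu. The larger of its 2 rises was in a unigene with 23.7 at 0, 90.1 at 5 and 17.5 at 15 psu.

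Antibody genes were divided too. In the B and plasma cell list 3 unigenes rose and 2 fell out of 16. The median was 0.02, but -0.25 with 1 unigene per gene, and the summed level was 1332 FPKM at 0, 1334 at 5 and 519 at 15 psu. Ig heavy chain Mem5-like fell in 1 unigene, 158 in fresh water, 49.1 at 5 psu and 36.6 at 15 psu, and rose in another, 10.2 at 0, 46.9 at 5 and 8.26 at 15 psu, and the 2 summed gave a log2 ratio of -0.81. The immunoglobulin J chain, which joins the units of secreted antibody, had 181 in fresh water, 152 at 5 psu and 64.9 at 15 psu. Outside that list immunoglobulin iota chain-like, a part of the receptor of immature B cells in mammals, rose from 17.0 to 66.3 and was at 6.37 at 15 psu (log2 ratio 0.395 over every unigene so described), and the B-cell receptor CD22-like, a brake on B cell signals, fell from 23.6 to 7.49 with 10.6 at 15 psu.

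T cell and killer cell genes were few. CD3 epsilon, a signalling chain of the T cell receptor, fell with 62.0 at 0, 25.6 at 5 and 24.0 at 15 psu, whereas the CD3 gamma chain had 19.4 in fresh water, 19.4 at 5 psu and 12.8 at 15 psu, and the T cell list as a whole had a median of 0.28 over 9 unigenes. Summed over every unigene described as CD3 epsilon, the levels were 92.1 at 0, 25.6 at 5 and 24.0 at 15 psu. Perforin-1, the pore protein of cytotoxic lymphocytes, rose 2.97-fold in the unigene described as Perforin-1, with 42.4 at 0, 126 at 5 and 81.1 at 15 psu. The 8 unigenes with the KEGG name PRF1 held no other change, had a median of 0.04 and summed to 966 FPKM at 0, 1073 at 5 and 2114 at 15 psu. Of the macrophage and Kupffer cell list, 2 of 22 unigenes fell and the median was -0.12. Both that fell were scavenger receptor M130-like, the haemoglobin receptor of resident macrophages, with 62.5 in fresh water, 27.9 at 5 psu and 37.6 at 15 psu and 36.4 at 0, 17.0 at 5 and 30.2 at 15 psu. Over every unigene with the description of the first, the log2 ratio was -0.82. The C1q subunits, which macrophages make, were nearer to each other, the A chain at 489 in fresh water, 448 at 5 psu and 568 at 15 psu and the C chain at 357 at 0, 293 at 5 and 347 at 15 psu.

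Among genes with a protein name, the 20 with the largest rises had ratios from 2.60-fold to 9.63-fold, and 16 of them were below 20 FPKM at 0 psu. Highest was nucleoside diphosphate kinase, mitochondrial, which balances nucleotide pools, in a minor unigene with FPKM of 6.32 in fresh water, 61.7 at 5 psu and 3.94 at 15 psu. The main unigene of that description had 2063 at 0, 2151 at 5 and 3632 at 15 psu, and the sum of both had a log2 ratio of 0.10. C-type lectin domain family 2 member D, a ligand for receptors of killer cells, followed with 8.02 in fresh water, 60.6 at 5 psu and 7.24 at 15 psu. Coenzyme Q-binding protein COQ10 homolog B, a chaperone of ubiquinone in mitochondria, was also among them with 14.8 at 0, 71.8 at 5 and 175 at 15 psu and is on the study's list. Fli-1-like, a transcription factor of blood and endothelial cells, had 11.96 in fresh water, 55.4 at 5 psu and 50.9 at 15 psu. Both had a high level at 15 psu as well, whereas the kinase and the lectin were there near or below their freshwater level. A phospholipase A2 inhibitor of the Ly6/PLAUR type was the most abundant of the 20 and had levels in the order of the salinities, 221 at 0, 783 at 5 and 2782 at 15 psu. Such inhibitors are plasma proteins made by reptile liver. Inhibin beta C, a liver hormone of the TGF-beta family, had 6.20 in fresh water, 17.8 at 5 psu and 10.5 at 15 psu. Endonuclease domain-containing 1 protein went from 62.3 to 162 and was at 2.52 at 15 psu. Others of the 20 started just above the minimum: the U11/U12 small nuclear ribonucleoprotein 48 kDa protein, which splices minor introns, had 5.38 at 0, 24.0 at 5 and 5.17 at 15 psu, RPAP2, a phosphatase of RNA polymerase II, had 5.91 in fresh water, 21.8 at 5 psu and 4.6 at 15 psu, and THUMPD3, a tRNA methyltransferase, had 5.29 at 0, 19.5 at 5 and 4.43 at 15 psu. All 3 were low at 15 psu, close to fresh water.

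**Figure D3:**
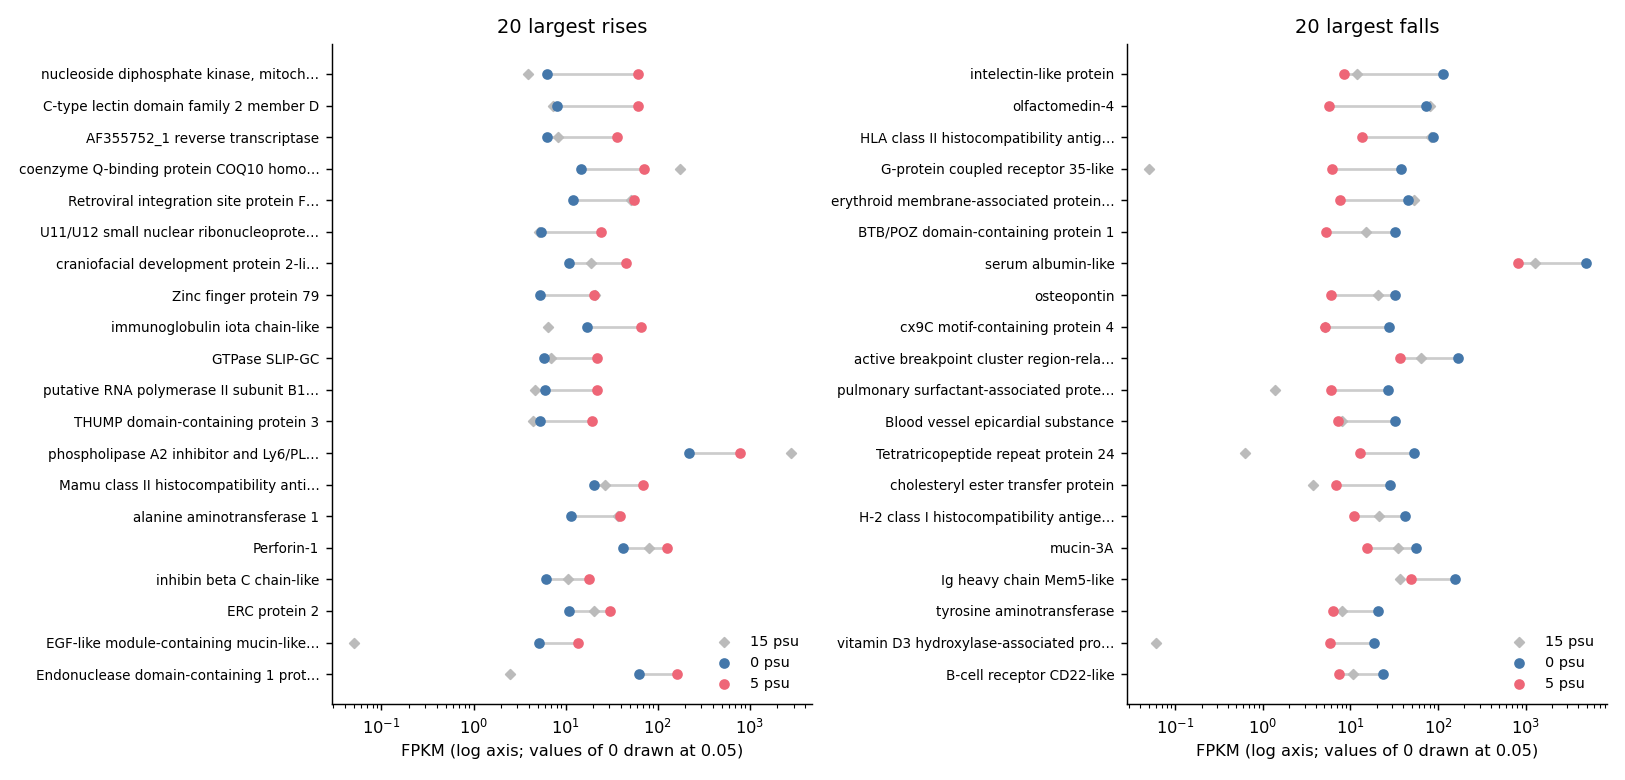
The 20 named genes with the largest rise (left) and the largest fall (right) from 0 to 5 psu, with the FPKM of each library on a log axis; blue circles are 0 psu, red circles 5 psu, grey diamonds 15 psu, and values of 0 are drawn at 0.05. The rises start mostly below 20 FPKM and the falls between 18.5 and 4846 FPKM. The minimum of 5 FPKM in both libraries sets part of this contrast, since a large fall must start well above it.

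The 20 largest falls ran from 3.12-fold to 13.4-fold, and 1 of them was below 20 FPKM at 0 psu. Large falls must start well above the minimum of 5 FPKM in both libraries, so their starting levels cannot be set against those of the rises. Intelectin-like, a secreted lectin that binds microbial sugars, fell furthest, with FPKM of 114 in fresh water, 8.42 at 5 psu and 11.8 at 15 psu. Olfactomedin-4, a glycoprotein of intestinal crypts and neutrophils in mammals, had 73.3 at 0, 5.71 at 5 and 81.5 at 15 psu, so that fresh water and 15 psu were both high. Osteopontin, a secreted phosphoprotein that bile duct cells and macrophages make, had 31.9 in fresh water, 5.95 at 5 psu and 20.5 at 15 psu, and mucin-3A, a membrane mucin of epithelia, 56.6 at 0, 15.3 at 5 and 34.7 at 15 psu. A unigene described as surfactant protein B, known from the lung, but with the KEGG name PSAP, went from 26.9 to 6.03 with 1.37 at 15 psu. Of the other epithelial markers, keratin 19, the keratin of bile ducts, was lower as well and below the minimum at 5 psu, with 11.1 FPKM at 0, 1.58 at 5 and 4.64 at 15 psu, whereas keratin 7 had 8.57 and 7.67 at 0 and 5 psu. Annexin A4 had 191 in fresh water, 185 at 5 psu and 133 at 15 psu, cadherin-1 75.3 at 0, 75.8 at 5 and 91.4 at 15 psu and the epithelial cell adhesion molecule 43.1 in fresh water, 58.7 at 5 psu and 10.3 at 15 psu. The 6 unigenes of the bile duct and epithelial list summed to 410 FPKM at 0, 354 at 5 and 301 at 15 psu, with a median ratio of -0.02. The part of bile duct or other epithelial tissue in the samples was not tested. Among the remaining falls, G-protein coupled receptor 35-like, a receptor for tryptophan products, went from 37.4 to 6.14 and was listed at 0 at 15 psu. Its log2 ratio of -2.58 was shared by the BTB/POZ domain-containing protein 1 and the erythroid membrane-associated protein-like unigenes, and the reads behind these ratios are unknown. ABR, a regulator of the small GTPases Rac and Cdc42, had 169.8 at 0, 36.98 at 5 and 64.5 at 15 psu. BVES, a membrane protein of muscle and epithelia that binds cyclic AMP, had 32.0 in fresh water, 7.22 at 5 psu and 8.11 at 15 psu.

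Traces of other tissues were looked for with further marker lists. Of 16 entries for pancreas, muscle, kidney and adipose tissue, 3 had a unigene in the comparison and 6 matched none, and the 3 unigenes summed to 256 FPKM at 0 psu and 217 at 5 psu. Outside the comparison, the muscle markers summed for myosin heavy chain to 35.4 FPKM at 0 psu and 6.24 at 5 psu, and those for troponin to 21.6 and 4.44. Solute carrier family 12 member 3, the sodium and chloride transporter of the kidney tubule, summed to 0.51 at 0 psu, 43.4 at 5 psu and 0.75 at 15 psu, of which 43.03 at 5 psu was in 1 unigene listed at 0 in both other libraries. Granulocyte and thrombocyte markers had a median of 0.37 over 11 unigenes with none changed, and the endothelial and stellate cell markers 0.05 over 12, among which desmin, the filament of stellate and muscle cells, had 108 at 0, 61.8 at 5 and 97.7 at 15 psu. The collagen and matrix list had 25 of 33 unigenes lower with a median of -0.13, and its members that changed were the metalloproteinase inhibitor TIMP1-like, with 10.5 in fresh water, 5.06 at 5 psu and 2.61 at 15 psu, and matrix metalloproteinase-23, with 5.61 at 0, 11.97 at 5 and 6.76 at 15 psu. Collagen alpha-2(I), the main fibre protein, had 31.5 in fresh water, 16.1 at 5 psu and 11.6 at 15 psu.

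Lists of basic cell functions held no 2-fold change. Cytosolic ribosomal proteins were higher at 5 psu in 34 of 40 unigenes with a median of 0.15, and S9 of the small subunit had the highest ratio with FPKM of 1883 at 0, 2946 at 5 and 2521 at 15 psu. The list for folding and stress in the endoplasmic reticulum, where secreted proteins fold, holds chaperones and some regulators and was higher in 19 of 22 unigenes with a median of 0.18. The chaperone of the lumen, the 78 kDa glucose-regulated protein BiP, had 273 in fresh water, 357 at 5 psu and 424 at 15 psu. Cytosolic heat shock proteins had a median of 0.11 over 23 unigenes, nuclear genes of the respiratory chain 0.07 over 78 and the proteasome 0.06 over 34. The medians of the respiratory chain and the proteasome were close to the 0.05 of all unigenes compared. Immediate early and cold-responsive genes were higher in 16 of 20 with a median of 0.16, and CCAAT/enhancer-binding protein beta, a factor of the acute phase, had 27.7 at 0, 40.9 at 5 and 107 at 15 psu. After division by the median ratio of all unigenes, each of these medians would be lower by 0.05.

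Families of similar unigenes were divided, and the counting by the authors could have split reads between near-identical copies, so single members are uncertain. Within the 434 genes of 2 or more unigenes, the log2 ratios spanned a median of 0.26, a 90th percentile of 1.34 and at most 4.42. Of these 434 genes, 5 had a rise and a fall. Of the 82 genes with 3 or more unigenes, none had all of them change 2-fold the same way. C-type lectin domain family 2, with 28 unigenes, had the widest span: beside the rise above, a member D-like unigene fell 10.9-fold, with 71.9 in fresh water, 6.50 at 5 psu and 122 at 15 psu. Its 28 unigenes had 14 higher and 14 lower at 5 psu, and their summed level was 2858 FPKM at 0, 2059 at 5 and 1893 at 15 psu, most of it in 1 unigene with 2233 at 0, 1452 at 5 and 1311 at 15 psu. Zinc finger genes with the KEGG name KRAB, repressors of transcription and of mobile elements, had 10 falls and 1 rise among 118 unigenes, 8.47% downward against 1.67% over all unigenes compared. Just outside the comparison, 48 further unigenes of that name reached 5 FPKM at 5 psu only and 36 at 0 psu only, and over all 485 the summed level was 3245 FPKM at 0, 2951 at 5 and 3420.0 at 15 psu. Zinc finger protein RFP-like had 1 of each among 18, and its unigene with 102 at 0 psu and 28.9 at 5 psu was listed at 0 at 15 psu.

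**Figure D4:**
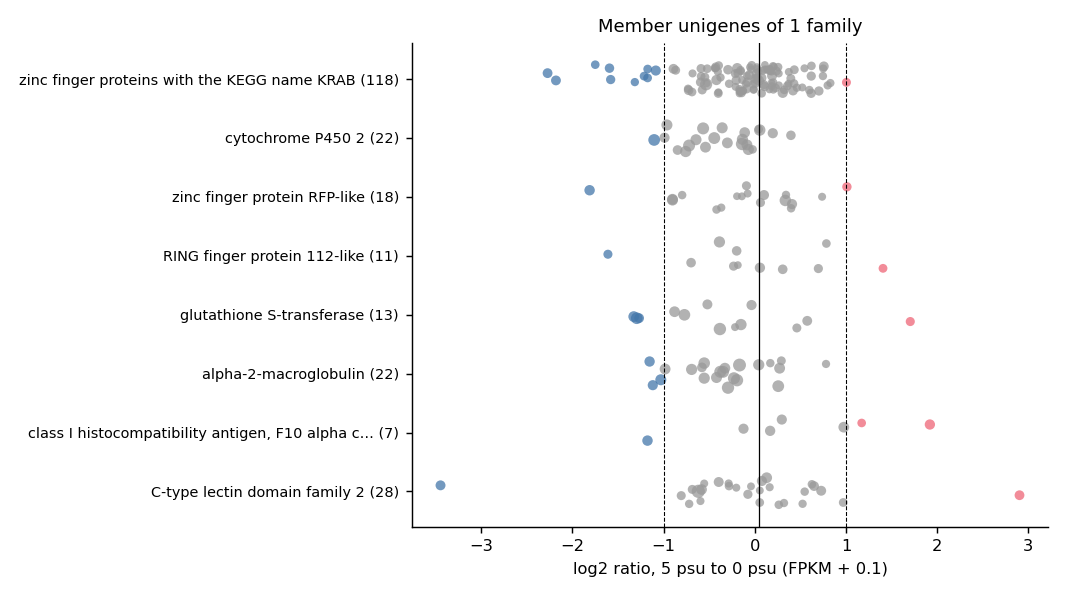
Each point is the log2 ratio of 1 unigene in a family of similar genes, with the area of the point growing with the mean FPKM; red points rose and blue points fell 2-fold, and the number of unigenes is in brackets. The C-type lectin domain family 2 spans from -3.45 to 2.90, and the KRAB zinc finger row has 10 blue points and 1 red point.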

How the data were processed

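RNA was taken from turtle liver, 1 library for each salinity, with groups taken from the salinity in the labels, which carry a percent sign beside the numbers and were read as psu. Per the study's methods, SeqPrep and Sickle were used for trimming, Trinity for assembly, and the unigenes were matched to NR and KEGG. The authors counted fragments with RSEM, for which the submitters' processing notes also name Bowtie, and deposited FPKM for each unigene to 2 decimals. Versions were not given in the sources used here. The study gives the number of reads of each library, but FPKM keeps no count of reads for a unigene, so how many reads a given value rests on is not known and no interval or detection limit was computed. Scaling between libraries beyond FPKM was not given in the sources used here. In the table, 20 lines hold no unigene and were skipped.

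Ratios were computed in Python 3.11.15 with numpy 2.4.6 and pandas 2.3.3, figures were drawn with matplotlib 3.10.9, and the steps were tested on simulated data. With 1 library per salinity no test was run. Members and the 42 gene lists were chosen with earlier results of these data known, and list matches that were wrong or missed were corrected after the descriptions were seen. The lists hold 599 entries, of which 448 matched a unigene compared. A gene took the value of its unigene with the highest mean level. Genes were picked by rule: the 20 largest rises and 20 largest falls among genes with a protein name, for each list the largest rise, the largest fall and the 2 most abundant genes, genes of 3 or more unigenes that all changed the same way, and the study's own list. Not every gene so picked, and not every list, is described above. Genes outside the rule were looked up after their values were seen. The alternatives were other pseudocounts, filters, scalings, species and ways to join unigenes. Those that used the 15 psu level, left out shared values or summed every unigene of a description were chosen after seeing the data.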

Additional observations from a re-analysis of the deposited data

How the results depend on the processing

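The count of 214 changed unigenes and the 41.1% of them that were higher depend on the minimum level. With a minimum of 1 FPKM in both libraries 981 changed and 48.3% were higher, with 20 FPKM 45 and 31.1%, with 5 FPKM in either library 2196 and 49.0%, and with no minimum 8695 and 55.9%, each over another set of unigenes. Under pseudocounts of 1 and 0.01, 3 rescalings, turtle genera only, 1 unigene or 1 sum per gene, and without shared values or unigenes below 5 FPKM at 15 psu, 146 to 214 changed, 35% to 43.2% of them higher, and the median log2 ratio lay between 0.0 and 0.086 in all settings. Of the 42 list medians, 26 lay below the median of all unigenes, and 26 or 27 did wherever lists were recomputed. Single list medians turned at a minimum of 20 FPKM for cholesterol synthesis, to -0.087 with 1 unigene left, and for T cell markers, to -0.525 with 2 left. The B and plasma cell median moved from 0.024 to between -0.453 and -0.249 under other filters or with unigenes joined. Of the 190 genes picked by rule, 54 changed 2-fold. A pseudocount of 1 lost 3 of these calls (carbonic anhydrase 13, TIMP1-like and matrix metalloproteinase-23), summing a gene's unigenes 4, and summing every unigene of a description 11. That sum turned alanine aminotransferase 1 from 1.76 to -0.255. No paired analysis was possible because each salinity has 1 library. Depth limits low unigenes most, but without read counts the limit has no value here.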

Other observations

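Outside the comparison, 1346 unigenes matched to the same genera had 5 FPKM or more at 0 psu only and 1606 at 5 psu only. Of those 2952, 505 belong to a gene that also has a unigene in the comparison. At 5 psu 731 of them were listed at 0, and at 0 psu 752 were. For 10 unigenes of C-type lectin domain family 2 the level reached 5 FPKM at 5 psu only, and for none at 0 psu only.

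Class I antigen of the F10 alpha type shows how the choice of unigenes sets a direction. Its 7 unigenes in the comparison summed to 339 FPKM at 0, 437 at 5 and 269 at 15 psu, but all 26 unigenes of that description summed to 631, 477 and 686. Serum amyloid P-component-like, 1 of the 9 acute phase unigenes that were higher at 5 psu, had 399.6 at 0, 557 at 5 and 478 at 15 psu.

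A narrow band of negative log2 ratios held more unigenes than its neighbours. Between -1.61 and -1.56 there were 14 unigenes, of which 9 were listed at 0 at 15 psu, while the bands of the same width above and below held 1 and 4. The V-type proton ATPase subunit d 2 is among the 14. Whether few reads lie behind these unigenes was not tested. Across the comparison, 32.7% of the 55 unigenes listed at 0 at 15 psu had changed between 0 and 5 psu, against 2.62% of the 7495 others.

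Uncharacterized protein LOC106732311, matched to Pelodiscus sinensis, was the only gene of 2 or more unigenes whose members all rose. Its unigenes had FPKM of 17.96 in fresh water, 51.1 at 5 psu and 32.9 at 15 psu and 5.15 at 0, 16.1 at 5 and 10.5 at 15 psu. In the other direction, uncharacterized protein LOC103305877 had 1763 in fresh water, 498 at 5 psu and 3146 at 15 psu, and the complement inhibitor CD59A-like had 1789 at 0, 889 at 5 and 2100.3 at 15 psu.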
